A study of Homo with 2 samples.

Results

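The cytosolic ribosomal protein genes encode the proteins of the large (RPL) and small (RPS) subunits of the cytoplasmic ribosome. They were taken by symbol from the count tables: every RPL or RPS gene with a number, RPLP0, RPLP1, RPLP2 and RPSA, without pseudogenes. This gave 83 of 28363 genes. Of these, 82 were in both tables, 50 of the large and 32 of the small subunit. RPL3L, the paralog of RPL3 known from skeletal muscle, was only in the table of library 2, with 3 UMIs (unique molecular identifiers, which count captured RNA molecules). All 83 matched a RefSeq gene, on 21 chromosomes. FAU and RPL36AL, which also encode cytosolic ribosomal proteins, fall outside this choice by symbol and are given separately.

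The ribosome holds nearly all of these proteins in equal numbers, and their mRNAs are among the most abundant of a growing cell. Most of these mRNAs start with a terminal oligopyrimidine (TOP) motif, through which mTOR signalling and the protein LARP1 control their translation and stability. A few genes, named after a parent gene with an L or L1 added, encode close variants of a core protein, and several of these paralogs are known from pluripotent cells, germ cells or tumours.

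The data were single-cell RNA counts of blastoids, aggregates that resemble an early embryo, in 2 libraries of 1 group. They were made from KhES1, a long-established line of human embryonic stem cells. Cells were aggregated in microwells for 24 h and then grown in hydrogel for 4 days, all in DMEM with 10% FBS and 10 µM Y27632, a ROCK inhibitor. With 1 line and no other condition, comparisons run between classes of cells within the libraries. No label gives each library a culture of its own, so p-values measure only the spread between these libraries, which may be technical.

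The description covers barcodes in which 1000 or more genes were detected and mitochondrial RNA made up no more than 20% of UMIs: 937 of 1988 in library 1 and 1519 of 2601 in library 2. Their medians were 35059 and 25116 UMIs. No kept barcode sequence was shared by the libraries.

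Ribosomal protein mRNA made up a large part of the captured molecules. Its share of all UMIs was 14.8% in library 1 and 15.7% in library 2, a mean of 15.3% ± 0.67 (SD, n = 2). The large subunit genes held 8.55% and 9.08% of UMIs and the small subunit genes 6.23% and 6.64%. Leaving mitochondrial UMIs out of the total raised the mean share to 16.2%.

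RPL41, a very short basic protein of the large subunit, was the highest member, at 4549 counts per 1000000 UMIs (CPM) in library 1 and 4911 CPM in library 2. RPS2, at 3920 and 4285 CPM, and RPS12, at 3409 and 3896 CPM, followed. RPS18, RPLP1, RPL13, RPS19, RPS27, RPS27A and RPS23 completed the 10 highest, which held 22.0% of the members' UMIs. RPS27A is made as a fusion with ubiquitin, and RPLP1 belongs to the acidic stalk that recruits translation factors. The kit counts 3′ ends, so CPM values are per molecule and not per length. Neighbours in this order were often no further apart than the libraries: RPS18 had 3337 ± 285 CPM and RPLP1 3309 ± 367 CPM (SD, n = 2 each).

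Without the paralogs, the other 77 members in both tables spanned a 7.65-fold range of levels. The lowest of them was RPS26, a small subunit protein at the mRNA exit channel, with 604 CPM in library 1 and 632 CPM in library 2. RPL31, RPL4, RPL27 and RPL38 came next, at means of 773 to 912 CPM. The remaining stalk proteins lay in the middle, RPLP0 at 1729 ± 112 CPM and RPLP2 at 1501 ± 90 CPM (SD, n = 2 each). RPSA, also known as a laminin receptor, had 1313 ± 55 CPM and RPS6, the small subunit protein phosphorylated downstream of mTOR, 2503 ± 78 CPM (SD, n = 2 each). The X-linked RPL10 and RPS4X had 2520 ± 95 and 1584 ± 75 CPM (SD, n = 2 each).

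The 5 paralogs lay below all of these. RPS27L had 178 CPM in library 1 and 198 CPM in library 2, RPL22L1 112 and 117, RPL7L1 70.3 and 70.7, RPL26L1 44.7 and 46.7, and RPL39L 33.3 and 33.7. Together they held 0.296% of the members' UMIs. Their parent genes RPS27, RPL22, RPL7, RPL26 and RPL39 averaged 2950, 1390, 1413, 2397 and 2317 CPM. RPL22L1 lies at chr3:170864875-170870195 and RPL39L at chr3:187120948-187139496 in GRCh38.

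**Figure D1:**
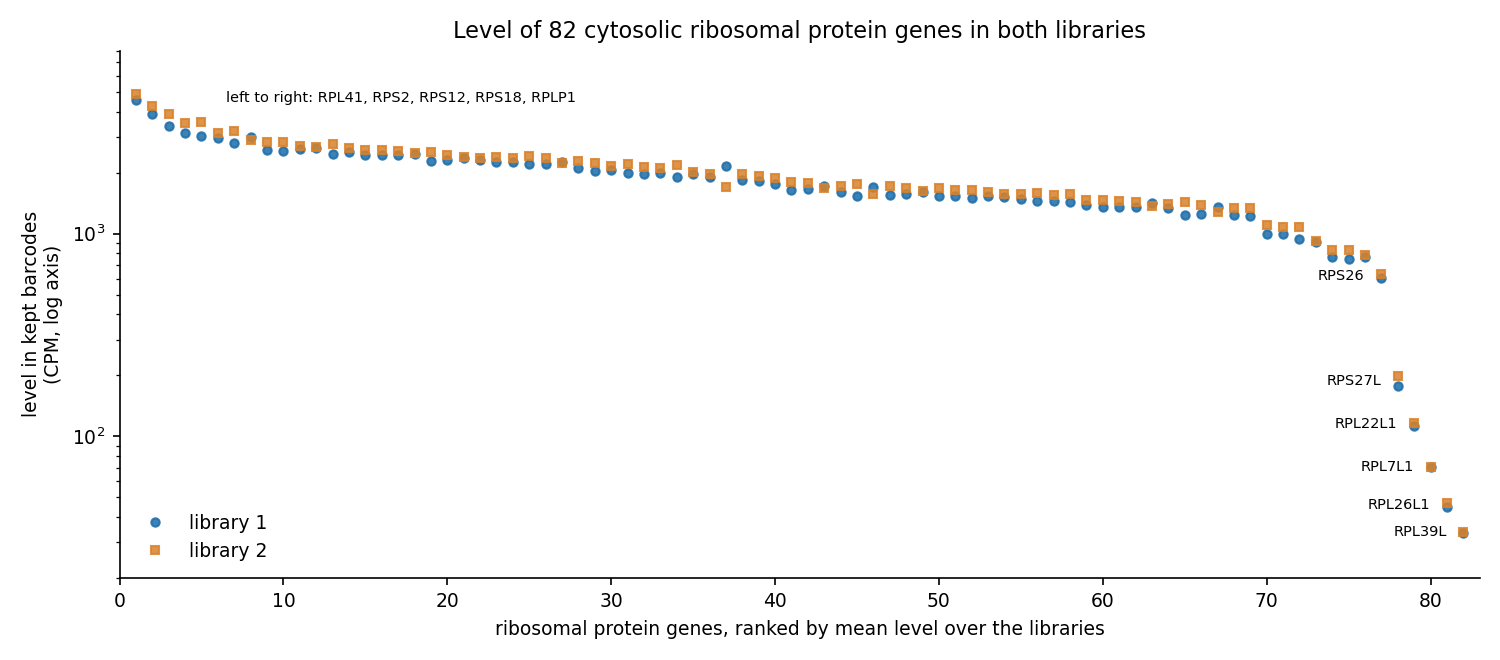
Level of each of the 82 members in both tables, in CPM on a log axis, ranked by the mean of both libraries (circles, library 1; squares, library 2). The core genes lie in 1 band above 600 CPM, and the 5 paralogs lie apart below 200 CPM.

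Levels were close between the libraries. All 82 members were within 1.5-fold between them. RPS29 differed most, with 2164 CPM in library 1 and 1702 CPM in library 2 (log2 of library 2 over library 1, -0.35). RPLP1 differed most in the other direction, at 0.23. RefSeq (GRCh38.p14) lists 1988 pseudogenes named after 78 members, 137 of them after RPL21, while 1 such pseudogene had a row in both tables. Reads of near-identical copies could therefore have been counted to members or dropped, and single levels are uncertain to that extent.

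The members also varied together between cells. After each barcode was thinned to 5000 UMIs (827 and 1138 barcodes deep enough), a median of 78 of the 82 members had a UMI in both libraries. Spearman's rho of a core member with the sum of the other members had a median of 0.73 over 827 barcodes of library 1 and 0.67 over 1138 of library 2. RPL41 was highest in both libraries, at 0.84 and 0.80. The lowest were RPL27A in library 1, at 0.38, and RPL4 in library 2, at 0.37. The paralogs lay between 0.09 and 0.32 in library 1 and between 0.08 and 0.26 in library 2; rho is bounded by their few UMIs. These correlations are over cells of the same library and thinned depth, and are a description only.

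Single barcodes differed far more than the libraries did. The share of UMIs in ribosomal protein genes had a median of 15.4% in library 1 (quartiles 10.7 and 18.2%) and of 15.7% in library 2 (12.5 and 18.1%). Single values lay between 0.171 and 40.0% in library 1 and between 0.215 and 41.5% in library 2. Most barcodes formed 1 broad peak, with a second group under 2.5% and a tail above 25%.

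**Figure D2:**
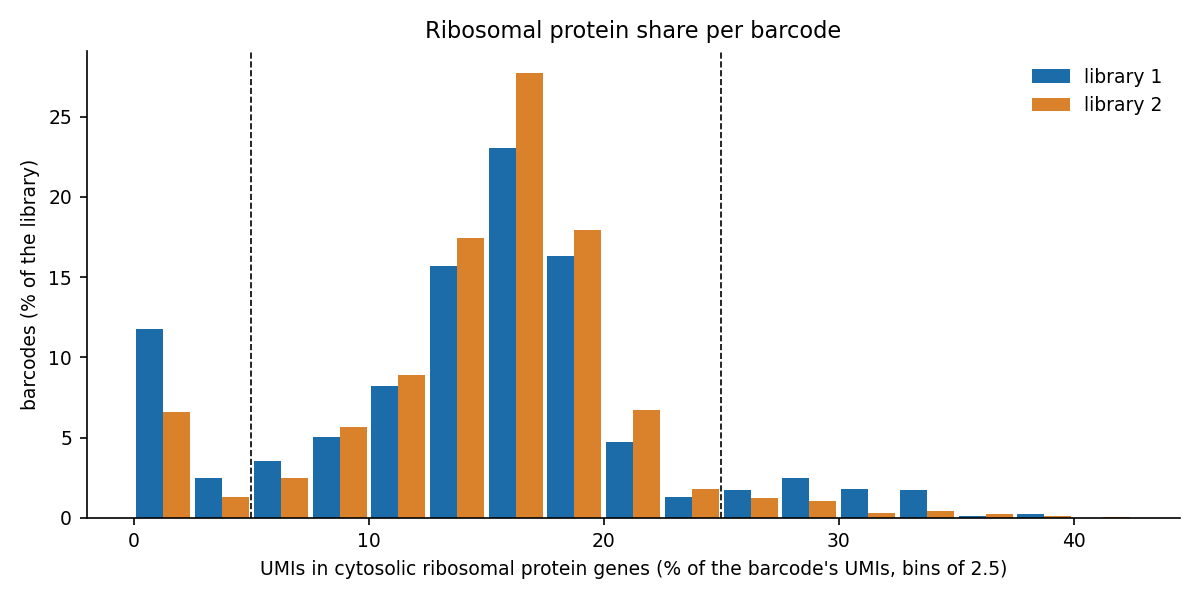
Share of each kept barcode's UMIs that fell in cytosolic ribosomal protein genes (x axis, percent, bins of 2.5), as the percent of barcodes of each library (y axis). Dashed lines mark 5% and 25%: 14.2% of barcodes in library 1 and 7.90% in library 2 lie under 5%, and 8.0% and 3.49% lie over 25%.

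The limits of 5 and 25% were set after the shares had been seen, and they describe ranges, not cell types. Under 5% lay 133 barcodes of library 1 (14.2%, exact 95% interval 12 to 16.6) and 120 of library 2 (7.90%, 6.59 to 9.37). Over 25% lay 75 of library 1 (8.0%, 6.35 to 9.93) and 53 of library 2 (3.49%, 2.62 to 4.54). Few barcodes lay at the limits: 20 and 18 at 4 to 6%, and 11 and 21 at 24 to 26%.

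Barcodes under 5% had medians of 17316 and 14211 UMIs, against 39723 and 27601 UMIs in the 5 to 25% range. Their median mitochondrial share was 9.90 and 10.5%, against 5.94 and 5.44%. MALAT1, a nuclear noncoding RNA, held a median of 1.24 and 1.74% of their UMIs, against 1.61 and 1.37%. Barcodes over 25% were shallower, with medians of 4323 and 6321 UMIs, and their medians of mitochondrial UMIs were 0.110 and 0.404% and of MALAT1 0.0872 and 0.120%. Depth was thus lower at both ends, the mitochondrial share was higher under 5% and lower over 25%, and MALAT1 was low over 25% but differed in direction between the libraries under 5%. Their part in the ribosomal protein share was not tested.

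The ranges were cut on the members' sum, so that sum differs between them by construction and is no yardstick for the make-up. The make-up of the members' UMIs was similar across the ranges for most members. Small subunit genes held 42.1 and 42.3% of the members' UMIs at 5 to 25%, 40.6 and 41.1% under 5%, and 42.5 and 42.3% over 25%. In barcodes over 25%, the share of each of the 82 members within the members' UMIs was within 2-fold of that at 5 to 25%, in both libraries. In barcodes under 5%, 78 members in library 1 and 80 in library 2 were within 2-fold.

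Exactly 2 members differed by more than 2-fold the same way in both libraries, both of them low-level paralogs. RPL7L1, whose yeast counterpart acts in assembly of the large subunit, held 0.244 and 0.191% of the members' UMIs in barcodes under 5%, against 0.0468 and 0.0450% at 5 to 25% (log2 2.38 and 2.08). RPL39L held 0.0639 and 0.0832%, against 0.0224 and 0.0215% (log2 1.51 and 1.95), from 28 and 24 UMIs. RPL4, a large subunit protein at the exit tunnel, was near 2-fold, at log2 1.02 and 0.98. RPS13, RPS12, RPS29 and RPL39 had the lowest ratios, with RPS13 at -1.02 and -0.85. The members named here were picked by these ratios, which are given with no test. Each is a share of a sum that the range itself sets low, so a higher share need not be a higher level. In cluster 2, described below, which held 49 of the 133 and 53 of the 120 barcodes under 5%, RPL7L1 had 37.4 and 41.3 CPM. The trophectoderm/amnion-like class that cluster 2 belongs to had 64.5 and 64.3 CPM.

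To compare cell classes, each UMI was assigned at random to part A or part B. Cells were clustered on part A without ribosomal protein genes, and members were measured in part B. Clusters were named from marker lists. Clusters 0, 1, 2 and 4 carried markers that trophectoderm and amnion share and formed the trophectoderm/amnion-like class (688 and 918 cells). Cluster 5 was named syncytiotrophoblast-like (24 and 56 cells), with 6 of 6 detected markers at 10 CPM or more, from a list of 10. As in clusters 0, 1, 2 and 4, no marker of its list was among its 10 leading genes. The proliferation gene MKI67 stood at 137 and 92.4 CPM in cluster 5, against 89.1 and 89.9 CPM in trophectoderm/amnion-like cells. TOP2A, also a proliferation gene, had 267 and 148 CPM, against 237 and 220 CPM. Cluster 7 was epiblast-like (62 and 89 cells). Clusters 3, 6, 8 and 9 had a median depth under 1/3 of that of their libraries and stayed unnamed (163 and 456 cells).

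The classes carried their markers, but the same lists had named the clusters, so the marker values describe the classes and do not test the names. POU5F1, a pluripotency factor, had 32.3 and 37.8 CPM in trophectoderm/amnion-like cells and 447 and 650 CPM in epiblast-like cells. VTCN1, found in trophoblast and amnion, had 264 and 284 CPM in trophectoderm/amnion-like cells and 14.4 and 11.4 CPM in epiblast-like cells. The epiblast-like class also held cells with primitive streak genes, with MIXL1 at 1.44 and 2.09 CPM in trophectoderm/amnion-like cells and 134 and 206 CPM in epiblast-like cells. Of its sub-clusters, 1 (16 and 9 cells) scored best on the trophectoderm and amnion list, with GATA3 at 165 and 281 CPM, against 141 and 131 CPM in the trophectoderm/amnion-like class. Streak markers fell in 7 of 7 genes tested and epiblast markers in 10 of 10, while 11 of 14 trophectoderm or amnion markers rose. Of 10 mesenchyme markers, 5 rose and 2 fell. The labels name the cell type as embryonic stem cells, while the epiblast-like class held 62 of 937 and 89 of 1519 barcodes.

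The named classes lay close together in their total ribosomal protein RNA. The share was 16.3% in library 1 and 16.7% in library 2 in syncytiotrophoblast-like cells, 14.7 and 15.4% in trophectoderm/amnion-like cells, and 14.2 and 16.8% in epiblast-like cells. The trophectoderm/amnion-like and epiblast-like values overlapped, while the syncytiotrophoblast-like values lay above the trophectoderm/amnion-like ones. Medians of single cells lay closer, at 15.8 and 15.7% in syncytiotrophoblast-like and 15.1 and 15.4% in trophectoderm/amnion-like cells. Under 5% lay 83 of 688 and 82 of 918 trophectoderm/amnion-like cells, against 0 of 24 and 2 of 56 syncytiotrophoblast-like cells. The part of these cells in the difference was not tested. Within the trophectoderm/amnion-like class, cluster 1 had 16.7 and 17.8%, above syncytiotrophoblast-like cells in each library, and cluster 2 had 4.81 and 3.20%. A share at that level was thus not particular to syncytiotrophoblast-like cells. The shares were not tested, since 2 libraries against 2 cannot pass a threshold of 0.05 in an exact test. The means were 15.1% ± 0.55 in trophectoderm/amnion-like cells and 15.5% ± 1.84 in epiblast-like cells (SD, n = 2 each). The 4 epiblast sub-clusters, of 9 to 49 cells per library, lay between 12.6 and 15.3% in library 1 and between 14.9 and 17.9% in library 2, and the sub-cluster with TBXT, a primitive streak factor, had 12.9 and 14.9%.

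Clusters differed more than classes. Cluster 4, with the highest levels of the proliferation gene MKI67 (235 and 221 CPM), had a share of 15.2 and 15.3%. Cluster 0, with 26 and 20.6 CPM of MKI67, had 15.1 and 15.8%. Cluster 2 was poor in ribosomal protein RNA, at 4.81 and 3.20%, and held 49 of the 133 and 53 of the 120 barcodes under 5%, with a median of 9.01 and 10.7% mitochondrial UMIs. Cluster 6 was rich, at 28.4 and 28.1%, and held 70 of the 75 and 39 of the 53 barcodes over 25%. Cluster 8 had 10.7 and 10.4%, with 5.22 and 6.16% of its UMIs in MALAT1. Cluster 3 split by library, at 3.01% in library 1 (43 cells) and 14% in library 2 (350 cells).

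**Figure D3:**
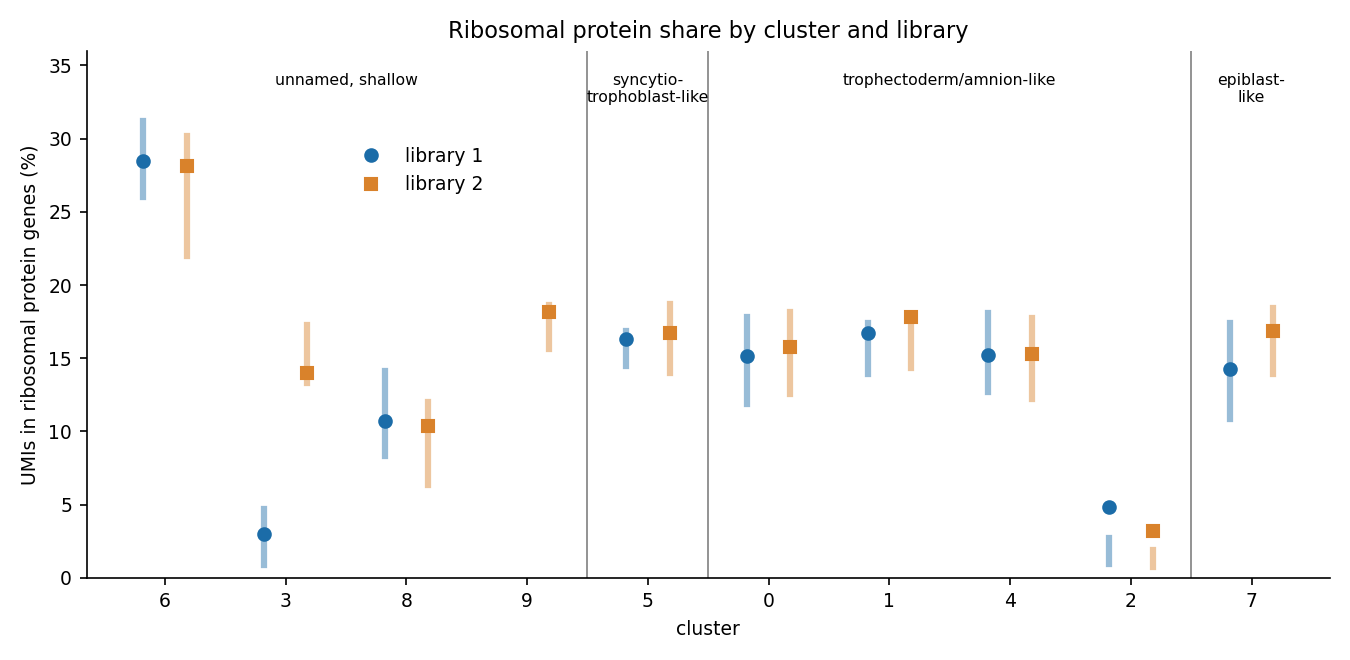
Percent of UMIs in ribosomal protein genes by cluster: points are summed part B UMIs per library (circles, library 1; squares, library 2) and bars the quartiles of single cells. Cluster 6 lies above 28% and cluster 2 under 5% in both libraries, cluster 3 differs between libraries, and cluster 9 has cells in library 2 only.

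In trophectoderm/amnion-like against epiblast-like cells, few members changed, and all that did were lower. Sums of part B UMIs per library and class were tested with edgeR's quasi-likelihood test, with the library as a block and p-values adjusted over 12827 genes. The syncytiotrophoblast-like class and the unnamed shallow clusters were in the same fit, so its estimate of the spread draws on them too. At an adjusted p under 0.05, 0 of 82 members rose and 5 fell, 6.10% of the members, against 44.2% of all genes tested (22.4% higher and 21.8% lower). The genes tested include those that formed the clusters, in other UMIs of the same cells, while the members were left out of clustering. The median log2 fold was 0.03 over the members and 0.01 over all genes. The 77 core members lay between -0.44 and 0.31, with a median SE of 0.14, and RPS26, the lowest, was the 1 core member called. At an unadjusted edgeR p under 0.05 there were 6 of 82 members, against 51.0% of all genes tested. DESeq2 called 0 members higher and 6 lower, and its share over all genes is not given here.

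Of the 5 members that fell, 4 were paralogs. RPL22L1, a paralog of RPL22 known in mice to make up for its loss, had 95.8 and 102 CPM in trophectoderm/amnion-like cells of libraries 1 and 2, against 194 and 179 CPM in epiblast-like cells. Its summed CPM was lower in both libraries, with no overlap, by a log2 fold of -0.82 (SE 0.16, edgeR adjusted p = 7.07e-04). In cells thinned to 5000 UMIs, RPL22L1 was detected in 31.2% of trophectoderm/amnion-like and 52.5% of epiblast-like cells of library 1. In library 2 these values were 36.6 and 36.4%, so detection per cell differed in library 1 alone. RPL7L1 had 64.5 and 64.3 CPM in trophectoderm/amnion-like cells, against 114 and 119 CPM in epiblast-like cells (log2 -0.77, SE 0.14, edgeR adjusted p = 3.76e-04).

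RPL39L, a paralog of RPL39 known from male germ cells of mice, had 30.8 and 27.5 CPM in trophectoderm/amnion-like cells, against 45.2 and 66.6 CPM in epiblast-like cells. The groups did not overlap, but the size of the difference varied between libraries (log2 -0.43 and -1.19). In library 1, epiblast sub-clusters 0 and 3 had 67.7 and 53.4 CPM, while sub-clusters 1 and 2 had 20.4 and 25.5 CPM. The values of sub-clusters 1 and 2 rested on 9 UMIs each, too few to place them below the trophectoderm/amnion-like level. In library 2, the 4 sub-clusters lay between 42 and 77 CPM, above the trophectoderm/amnion-like level. The fitted log2 fold was -0.85 (SE 0.20, edgeR adjusted p = 0.00268). RPS27L, a paralog of RPS27 and a p53 target, had 163 and 177 CPM in trophectoderm/amnion-like cells, against 234 and 307 CPM in epiblast-like cells (log2 -0.58, SE 0.18, edgeR adjusted p = 0.0189).

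RPL26L1, a close copy of RPL26, was also lower in both libraries, with 42.1 and 45.9 CPM in trophectoderm/amnion-like cells, against 57.7 and 56.7 CPM in epiblast-like cells, but its log2 fold of -0.28 (SE 0.15) did not pass the test (edgeR adjusted p = 0.156). Among core members, only RPS26 was called. It had 549 and 576 CPM in trophectoderm/amnion-like cells, against 753 and 872 CPM in epiblast-like cells (log2 -0.44, SE 0.16, edgeR adjusted p = 0.0366). The RPS26 call was lost in 5 of 15 alternative settings and that of RPS27L in 2, while RPL22L1, RPL7L1 and RPL39L passed in 15 of 15. MALAT1 differed between the classes too, at 1.75 and 1.48% of UMIs in trophectoderm/amnion-like cells and 0.617 and 0.575% in epiblast-like cells; its part in these results was not tested. MALAT1 and NEAT1, also nuclear, both rose in the test, by 1.53 and 0.65.

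Scaled to the members' own total, 5 members rose and 9 fell. The same 5 fell, with RPL8, RPL6, RPS23 and RPLP1 added at log2 folds of -0.31 to -0.26. RPL12, RPL28, RPL3, RPL18 and RPL13 rose by 0.26 to 0.19. With barcodes at 5 to 25% alone, 0 members rose and 9 fell. With no filter on low counts, 6 rose and 4 fell. The share of all genes called in these settings is not given here, and in the main fit it was 44.2%. These counts are thus no result about the members.

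The share of a paralog within its pair does not depend on the scaling of libraries. RPL22L1 gave 6.38 and 7.06% of the UMIs of RPL22L1 and RPL22 in trophectoderm/amnion-like cells, against 12.3 and 10.8% in epiblast-like cells. RPL7L1 gave 4.54 and 4.20% of its pair in trophectoderm/amnion-like cells, against 8.62 and 7.46% in epiblast-like cells. RPS27L gave 5.08 and 5.78% in trophectoderm/amnion-like cells, against 7.97 and 9.53% in epiblast-like cells, and RPL39L 1.35 and 1.16%, against 2.06 and 2.72%. For these 4 pairs the classes did not overlap and the exact 95% intervals within a library, which cover counting error only, were apart. For RPL26L1 they were 1.85 and 1.83% in trophectoderm/amnion-like cells and 2.39 and 1.97% in epiblast-like cells, and the intervals overlapped in both libraries.

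**Figure D4:**
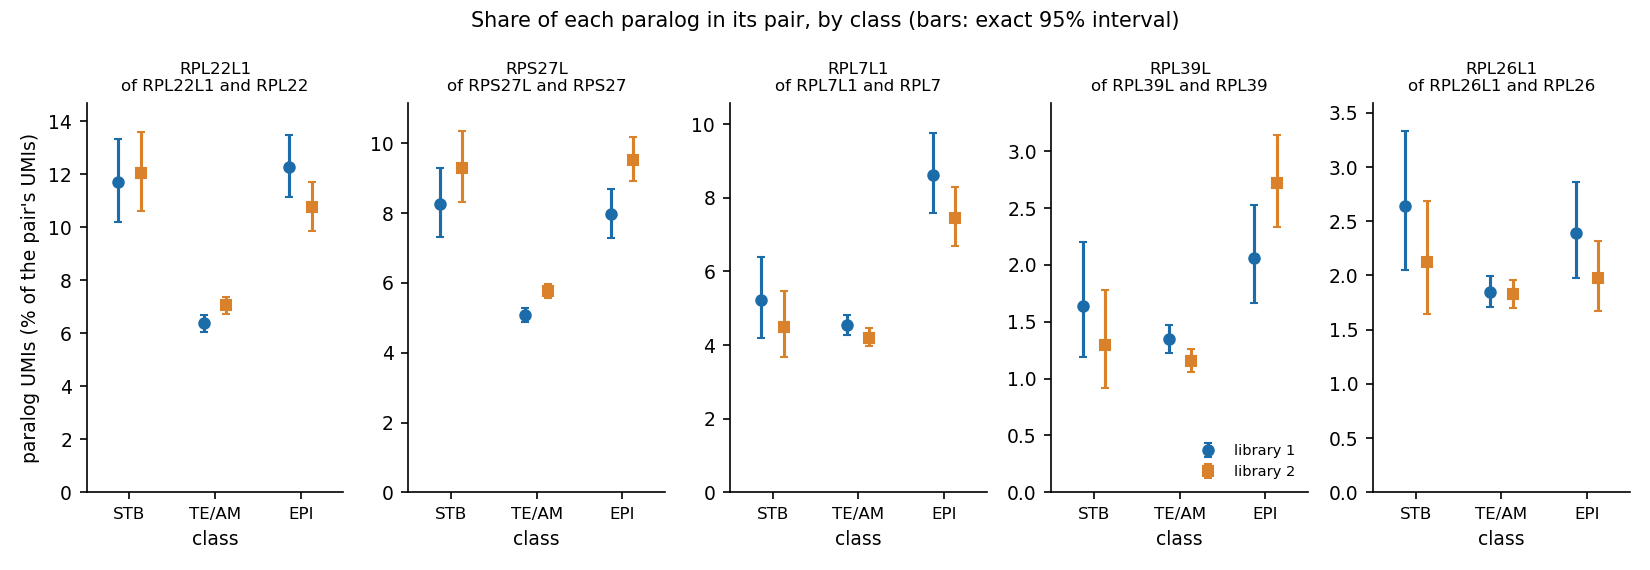
UMIs of each paralog as percent of the UMIs of the paralog and its parent (y axis, each panel with its own scale) in syncytiotrophoblast-like (STB), trophectoderm/amnion-like (TE/AM) and epiblast-like (EPI) cells of each library, with exact 95% intervals for counting error. RPL22L1 and RPS27L are lowest in trophectoderm/amnion-like cells, and RPL7L1 and RPL39L are highest in epiblast-like cells.

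The clusters of the trophectoderm/amnion-like class differed among themselves in these paralogs. RPL39L had 47.9 and 40.6 CPM in cluster 1 and 44.3 and 36.5 CPM in cluster 4, while it had 25.2 and 21.2 CPM in cluster 0 and 11 and 13.8 CPM in cluster 2. The cluster 2 values rested on 10 and 9 UMIs of RPL39L. Within its pair, RPL39L gave 1.06 and 0.877% in cluster 0 and 1.80 and 1.41% in cluster 1. It gave 1.87 and 1.56% in cluster 4 and 1.79 and 3.33% in cluster 2, so the order depended on the measure. MKI67 stood at 137 and 123 CPM in cluster 1 and at 85.8 and 88.7 CPM in cluster 2, above cluster 0. A link of RPL39L to MKI67 was not tested. RPL22L1 had 130 and 128 CPM in cluster 1, 100 and 110 CPM in cluster 4, and 94.6 and 98.1 CPM in cluster 0. In cluster 2, the cluster poor in ribosomal protein RNA, it had 42.9 and 15.3 CPM. Between the classes MKI67 was alike in level, at 89.1 and 89.9 CPM in trophectoderm/amnion-like cells and 100 and 90.2 CPM in epiblast-like cells. The proliferation gene TOP2A was not: it had 237 and 220 CPM in trophectoderm/amnion-like cells, against 359 and 287 CPM in epiblast-like cells. Cluster values are given with no test.

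Ribosome biogenesis factors, which make and assemble the subunits, fell in 39 of 48 genes tested and rose in 2, with a median log2 fold of -0.82. LYAR, a nucleolar growth regulator, averaged 21.9 ± 0.83 CPM in trophectoderm/amnion-like cells and 74.4 ± 0.89 CPM in epiblast-like cells (SD, n = 2 each; log2 -1.67). RRP9, a protein of the U3 particle that processes ribosomal RNA, averaged 8.93 ± 1.31 CPM in trophectoderm/amnion-like cells and 29.2 ± 1.53 CPM in epiblast-like cells (SD, n = 2 each; log2 -1.61). NOP16 and MRTO4, assembly factors of the large subunit, had log2 folds of -1.51 and -1.36.

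Mitochondrial ribosomal proteins, which build the separate ribosome of the mitochondrion, fell in 41 of 77 genes tested and rose in 1, with a median of -0.43; MRPL16 had the lowest value, at -1.22. Initiation factors fell in 9 of 25 and rose in 0, with EIF5A at -1.12 and the cap-binding EIF4E at -0.91. Elongation factors and other genes with TOP mRNAs went both ways, 5 of 17 higher and 2 lower. EIF4A2 (0.62), TPT1 (0.53) and the elongation factor EEF2 (0.49) rose, and the nucleolar NPM1 fell (-0.57). FAU and RPL36AL were not called, at log2 folds of 0.11 and -0.08.

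Of 12 regulators of ribosomal protein mRNA, 2 rose and 2 fell. MYCN fell, with 8.90 ± 2.01 CPM in trophectoderm/amnion-like cells and 29.3 ± 2.73 CPM in epiblast-like cells (SD, n = 2 each; log2 -1.62). EIF4EBP1, a translation repressor under mTOR, fell by 1.11 on the log2 scale. TSC1, an inhibitor of mTOR signalling, and MAX, the partner of MYC, rose by 0.75 and 0.45. Every call in these lists is edgeR's, at an adjusted p under 0.05 over all genes.

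**Figure D5:**
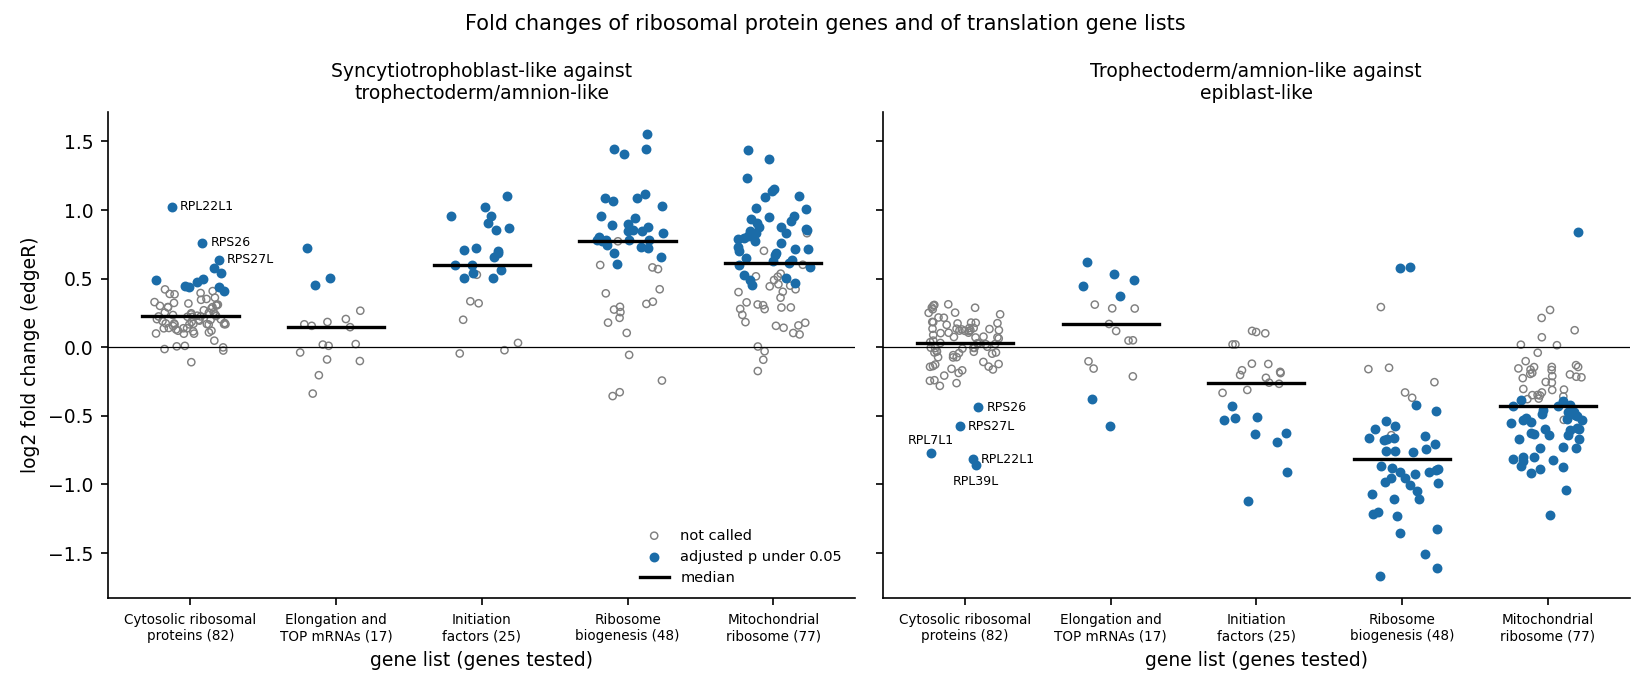
log2 fold changes (y axis) of the 82 members and of 4 lists of translation genes, for syncytiotrophoblast-like against trophectoderm/amnion-like cells and for trophectoderm/amnion-like against epiblast-like cells; filled points passed an edgeR adjusted p of 0.05 and lines are medians. Biogenesis factors have medians of 0.77 and -0.82, while the members have 0.23 and 0.03.

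Syncytiotrophoblast-like cells, the class with markers of the hormone-making placental layer, were set against trophectoderm/amnion-like cells in a comparison added after the data had been seen. It shares the trophectoderm/amnion-like sums with the comparison above. Of 82 members, 12 rose and 0 fell, 14.6% of the members, against 34.9% of all genes called (18% higher and 16.9% lower). The share of members called higher was thus below that of all genes. The members' median log2 fold was 0.23, that of all genes -0.02, and 76 of 82 members went the same way in both libraries. That count was 49 of 82 for trophectoderm/amnion-like against epiblast-like cells and 57 of 82 for the unnamed shallow clusters. It is not given here over all genes, so it is a description only. The 24 and 56 syncytiotrophoblast-like cells had medians of 66145 and 30998 UMIs. All 4 syncytiotrophoblast markers tested rose, and so did 3 of 5 markers of extravillous trophoblast. The syncytiotrophoblast list had named the class, so its rise is no test of the name. The nuclear RNA NEAT1 rose by 0.96 on the log2 scale, and the median mitochondrial share was 5.08 and 4.62% in syncytiotrophoblast-like cells, against 6.23 and 6.15% in trophectoderm/amnion-like cells. Their part in the members' rises was not tested.

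RPL22L1 led, with 191 and 189 CPM in syncytiotrophoblast-like cells, against 95.8 and 102 CPM in trophectoderm/amnion-like cells (log2 1.02, SE 0.17, edgeR adjusted p = 2.93e-04). RPS26 had 904 and 896 CPM in syncytiotrophoblast-like cells, against 549 and 576 CPM in trophectoderm/amnion-like cells (log2 0.76, SE 0.16, edgeR adjusted p = 0.00216). Both were higher in both libraries and passed in all 15 alternative settings. RPS27L had 245 and 254 CPM in syncytiotrophoblast-like cells, against 163 and 177 CPM in trophectoderm/amnion-like cells (log2 0.64, SE 0.19, edgeR adjusted p = 0.0177), and kept its call in 11 of 15.

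Among the other calls, RPL27, RPL26L1, RPL38, RPLP2, RPS16, RPS13, RPL7L1 and RPL36 rose by 0.57 to 0.41. These smaller rises depended on the setting, and the number of members called higher lay between 2 and 17 over the alternatives: it was 7 with total UMIs as the scale, 4 with the members' own total, which also gave 4 lower, and 2 at no more than 10% mitochondrial UMIs. The members' own total moved the median of all genes to -0.24, with 1276 genes higher and 2557 lower in place of 2306 and 2174, and the members' median to 0.01. RPL39L was not called, with 41.9 and 31.3 CPM in syncytiotrophoblast-like cells, against 30.8 and 27.5 CPM in trophectoderm/amnion-like cells.

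Within their pairs, RPL22L1 gave 11.7 and 12.1% and RPS27L 8.27 and 9.30% in syncytiotrophoblast-like cells, against 6.38 and 7.06% and 5.08 and 5.78% in trophectoderm/amnion-like cells. RPL7L1 gave 5.21 and 4.5% in syncytiotrophoblast-like cells, against 4.54 and 4.20% in trophectoderm/amnion-like cells, with overlapping exact intervals. Biogenesis factors rose in 30 of 48 genes and mitochondrial ribosomal proteins in 44 of 77, none fell in either list, and the medians were 0.77 and 0.62. NOP16 rose by 1.56 on the log2 scale and MRPS12 by 1.43. MYCN rose by 2.39 on the log2 scale, with 45.1 ± 23.0 CPM in syncytiotrophoblast-like cells and 8.90 ± 2.01 CPM in trophectoderm/amnion-like cells (SD, n = 2 each). Initiation factors rose in 18 of 25, and elongation factors and other TOP mRNAs in 3 of 17. RPL36AL rose by 0.40 on the log2 scale, and FAU, at 0.23, was not called.

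The unnamed shallow clusters together were not told apart from trophectoderm/amnion-like cells in any member. With edgeR, 0 of 82 members rose or fell, against 0.187% of all genes called (24 genes, all higher). At an unadjusted edgeR p under 0.05 there were 11 of 82 members, against 8.54% of all genes tested, and DESeq2 called 0 members. The members' median log2 fold was 0.19, but it was -0.16 with barcodes at 5 to 25% alone. Depth made this group, so its medians of 3266 and 2723 UMIs, against 37799 and 33434 UMIs in trophectoderm/amnion-like cells, belong to how it was chosen. Its median mitochondrial share was 0.728 and 4.01%, against 6.23 and 6.15%, and its part in these values was not tested.

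The group pooled clusters that differ in opposite directions, which were then fitted one by one, after the data had been seen, over 12160 genes. In cluster 6, 6 of 82 members rose and 0 fell, against 25.9% of all genes called (13.4% higher and 12.5% lower), and the members' median log2 fold was 1.35. Scaled by total UMIs alone, the members' medians in libraries 1 and 2 were 0.97 and 0.84. RPS26 had 1458 and 1384 CPM in cluster 6, against 549 and 576 CPM in trophectoderm/amnion-like cells (log2 1.79, SE 0.54, edgeR adjusted p = 0.0143). RPS27L, RPL26L1, RPS13, RPL7L1 and RPL22L1 were the other calls. RPL22L1 rested on library 1, with 231 and 105 CPM in cluster 6, against 95.8 and 102 CPM in trophectoderm/amnion-like cells. The epiblast marker POU5F1 was higher too, with 205 and 105 CPM in cluster 6, against 32.3 and 37.8 CPM in trophectoderm/amnion-like cells. SOX2 had 51.3 and 0 CPM in cluster 6, against 1.77 and 2.55 CPM in trophectoderm/amnion-like cells, so it was higher in library 1 alone. NANOG had 4.28 and 6.21 CPM in cluster 6, against 0.131 and 0.406 CPM in trophectoderm/amnion-like cells. That is very few UMIs, as 7 and 6 UMIs of RPL39L made 29.9 and 37.2 CPM in cluster 6. GATA3 had 167 and 112 CPM in cluster 6, against 141 and 131 CPM in trophectoderm/amnion-like cells. TFAP2A had 205 and 236 CPM, against 199 and 204 CPM, and VTCN1 68.4 and 86.9 CPM, against 264 and 284 CPM. The part of these markers in the rises was not tested. RPL41, at 8366 and 8594 CPM in cluster 6, against 4600 and 4892 CPM in trophectoderm/amnion-like cells, was not called. An unadjusted edgeR p under 0.05 was found for 68 of 82 members, against 38.6% of all genes tested. Cluster 6 had medians of 0.110 and 0.346% mitochondrial UMIs.

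In cluster 8, RPL7 was the single member called, with 390 and 311 CPM in cluster 8, against 1355 and 1467 CPM in trophectoderm/amnion-like cells (log2 -2.24, SE 0.61, edgeR adjusted p = 0.0403). There 2.99% of all genes were called (1.8% higher and 1.19% lower). RPL7 rested on 33 and 19 UMIs in cluster 8. Members of cluster 8 did not move as 1 block: their medians were -0.70 and -0.87 in libraries 1 and 2, while RPS15 had 2518 and 2681 CPM in cluster 8, against 1490 and 1706 CPM in trophectoderm/amnion-like cells. In cluster 3, 0 members were called with edgeR, against 0.0411% of all genes called (0.0329% higher and 0.00822% lower). There 10 of 82 members had an unadjusted edgeR p under 0.05, against 7.25% of all genes tested. Its members' medians were -2.29 in library 1 and -0.14 in library 2. The spread between the libraries of cluster 3 entered this fit, in which members had a median SE of 0.61 to 0.63 per cluster.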

How the data were processed

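Per the labels' protocols, library construction used the Chromium 3′ v3.1 kit. The submitters' processing notes name Cell Ranger 9.0.0 and GRCh38; further steps are not given in the sources used here. The authors deposited raw counts of UMIs for each gene and barcode, 1 table per library, with totals of 38665475 and 45208758 UMIs.

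Barcodes were kept from 1000 genes up and to 20% mitochondrial UMIs. Scrublet (expected doublets 0.8% for every 1000 barcodes) marked 0 and 2 kept barcodes, which stayed in, so doublets were in effect not removed. Each UMI went at random to part A or B. Part A, without ribosomal protein, mitochondrial and translation list genes, was clustered with scanpy 1.11.5 (2000 variable genes, 30 components, 15 neighbours, Leiden resolution 0.5, igraph 0.11.9). A cluster was named from its best marker list. It stayed unnamed where another list had more markers among its 10 leading genes, where under 3 markers were detected, or where depth was under 1/3 of that of its libraries with no marker among those 10. In alternatives that clustered anew the limit on other lists was not used.

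Part B counts were summed per library and class and tested with edgeR 4.0.16 (TMM, filterByExpr, quasi-likelihood test, library as a block, Benjamini-Hochberg over all genes, threshold 0.05). The SE is the log2 fold over the square root of the F statistic. Classes share their library, as the labels give it, so the library pairs them, and p-values measure only how class differences vary between these libraries. Every named class and the pooled unnamed shallow clusters entered the same fit and share its estimate of the spread. The SE and p-value of a comparison thus draw on all of them, not only on the classes compared. The test was also tried on simulated data with known changes. DESeq2 1.42.0 and other settings were tried.

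Named members were the 10 highest and 10 lowest, the paralogs with their parents, RPLP0, RPLP1, RPLP2, RPSA, RPS6, RPL10, RPS4X, and the 10 largest called rises and falls per comparison with the same direction in both libraries; other lists gave up to 4 called genes at 10 CPM or more. RPS29, RPL21, RPL27A, RPS15, RPL36 and members called on the members' own total were named after their values were seen. The members, lists and tests were chosen with earlier results of these data known. Intervals are exact (Clopper-Pearson) and cover counting error only. Values of some single genes are not reported here.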

Additional observations from a re-analysis of the deposited data

Results flagged for a closer look

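Barcodes left out by the limits on genes and mitochondrial UMIs also carried ribosomal protein UMIs, and the comparisons do not use them. In barcodes with fewer than 1000 detected genes, the share had a median of 22.7% in library 1 (980 barcodes, median of 384 UMIs) and of 15.3% in library 2 (1013 barcodes, 485 UMIs). In barcodes with over 20% mitochondrial UMIs it had a median of 1.55% in library 1 (71 barcodes, 7217 UMIs) and of 1.37% in library 2 (69 barcodes, 6854 UMIs).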

How the results depend on the processing

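The mean ribosomal protein share of 15.3% moved by more than the spread between libraries under 1 of 5 alternatives, 16.2% without mitochondrial UMIs; 1 library at a time gave 14.8 to 15.7%. For trophectoderm/amnion-like against epiblast-like cells, 0 members higher became 5 on the members' own total and 6 with no filter on low counts; 5 lower became 9 on the members' own total, 3 at no more than 10% mitochondrial UMIs, 3 at resolution 1.0 and 9 with barcodes at 5 to 25%. Without the library block it stayed at 0 and 5. In the main fit of this comparison 44.2% of all genes were called. The paralogs and RPS26 were lower in all 15 alternatives. For the shallow clusters, the 24 genes called became 7 on the members' own total, 126 with no filter on low counts, 42 with DESeq2, 11 without the library block, 63 without scrublet calls and clustered anew, 6 with cells of 5000 UMIs or more, 14 at no more than 10% mitochondrial UMIs and 41 at resolution 1.0, and the members called stayed at 0 in all 15. For syncytiotrophoblast-like cells, 12 members higher became 7 with total UMIs, 4 on the members' own total (with 4 lower in place of 0), 6 with no filter, 4 without scrublet calls and clustered anew, 7 with another split, 2 at no more than 10% mitochondrial UMIs and 5 at resolution 1.0; without the library block it was 12. In the main fit of the syncytiotrophoblast-like comparison 34.9% of all genes were called. The settings without scrublet calls (2 barcodes), with another split and at resolution 1.0 each rebuilt the classes. They did so without the limit on other lists, so they changed more than 1 choice. The causes were not tested. The settings with barcodes at 5 to 25% and without the streak and amnion sub-clusters, and the cluster fits, were chosen after seeing the data. Leaving out 1 library leaves no test; all 5 members kept their direction in each library, as did the 12, and 24 and 23 of the 24 genes. Depth limits the paralogs most: RPL39L rests on 43 and 38 UMIs in syncytiotrophoblast-like cells.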
